A study of Macaca mulatta with 33 samples.

Results

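ELF5, TMPRSS7 and INSM1 were followed array by array in the rhesus macaque corpus luteum, the gland that forms from the ovulated follicle and secretes progesterone. They were chosen by symbol: all probe sets whose only gene symbol is ELF5, TMPRSS7 or INSM1, which gave 3 of the 14132 genes with a symbol of their own and 5 of the 52766 probe sets on the array. ELF5 (Entrez gene 717377) has 2 probe sets, TMPRSS7 (709448) has 2 and INSM1 (703605) has 1. The choice was made on measured values, because these genes stood out among those that were high after 1 day of chorionic gonadotropin and low again after 6 days. The differences among untreated tissue, day 10 hCG and day 15 hCG are therefore given as a description, without a test.

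The study exposed cycling adult female macaques to rising doses of human chorionic gonadotropin (hCG), the hormone by which an early conceptus keeps the corpus luteum alive, to simulate early pregnancy. Dissected luteal tissue was taken at luteal day 10 without any treatment (8 arrays), at day 10 after 1 day of hCG (4 arrays) and at day 15 after 6 days of hCG (5 arrays). In further groups of 4 arrays each, hCG was combined with trilostane (TRL), an inhibitor of 3-beta-hydroxysteroid dehydrogenase and so of progesterone synthesis, or with TRL and the synthetic progestin R5020, at day 10 and again at day 15. No untreated day 15 group and no group given TRL without hCG was analysed here, and the only untreated tissue is from day 10, so at day 15 the length of hCG exposure and the age of the gland cannot be told apart. The labels do not say whether replicates were separate animals, and the p-values cover only the spread from array to array. The tissue was analysed whole, so fewer cells of a type and less RNA per cell cannot be told apart.

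ELF5 is an ETS-family transcription factor of epithelia, known from the mammary gland, where prolactin and progesterone signalling induce it and it drives the formation of milk-secreting alveolar cells; it also acts in the trophoblast. TMPRSS7, also called matriptase-3, belongs to the type II transmembrane serine proteases, enzymes anchored in the cell surface that cleave proteins outside the cell. INSM1 is a zinc-finger transcriptional repressor of developing neuroendocrine and neuronal cells and is used as a marker of neuroendocrine differentiation. Luteal cells are not among the cell types these genes are best known for.

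All 33 arrays had medians between 6.14 and 6.32 on the log2 scale, and values are given below as log2 intensities after each array was centred on its median. The median of all values, 6.19, serves as a reference line: probe sets that exceeded it on at least 4 arrays (28911 of 52766) were tested, and values well below it are hard to tell from background, for which no detection call was used. Of the 5 probe sets, 4 passed, and the weaker ELF5 probe set did not. The arrays fall into 3 sets by the code in their labels. Day 15 hCG replicates 3 and 5, whose labels carry the same sample number, differed by a root-mean-square of only 0.202 log2 units and were averaged for the means below (n = 4). Replicate 4 of day 15 hCG with TRL and replicate 4 of day 15 hCG with TRL and R5020, labelled as different treatments, differed by 0.192, less than any other of the 528 pairs of arrays, whose median difference was 0.480. Tested differences of the stronger probe sets that rest on that pair are given with and without it. The exceptions are ELF5 and TMPRSS7 at day 15 against untreated, which passed neither way.

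ELF5 was low in untreated tissue and high in most day 10 glands exposed to hCG. In the 8 untreated arrays the stronger probe set ranged from 4.61 to 6.35 with a median of 5.88. In the day 10 hCG group it read 9.82, 6.98, 9.05 and 10.03 in replicates 1 to 4. All 4 lay above every untreated array, and replicate 2 was the lowest, deviating by -1.99 from the group mean. The group means were 5.80 ± 0.56 (SD, n = 8) and 8.97 ± 1.39 (SD, n = 4), and the difference adjusted for array set was 3.44 ± 0.71 (SE). Because the untreated level lay under the reference line of 6.19, the fold is given as a bound from that line, at least 6.90-fold. Here and below, such bounds compare group levels adjusted for array set, with the lower one set at the line. By day 15 the hCG arrays read 4.99, 5.06, 5.46, 4.93 and 5.41, all within the range of the untreated arrays. The fall from day 10 to day 15 was 3.84 ± 0.71 (SE) on the log2 scale.

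TMPRSS7 followed the same course. Untreated arrays ranged from 4.40 to 7.45 with a median of 5.10 in the stronger probe set. Day 10 hCG replicates 1 to 4 read 8.84, 8.15, 9.47 and 9.55, each above the highest untreated array. At day 15 the hCG arrays read 4.67, 5.31, 4.75, 4.30 and 4.22. The mean went from 5.36 ± 1.01 (SD, n = 8) in untreated tissue to 9.00 ± 0.65 (SD, n = 4) at day 10 and 4.69 ± 0.44 (SD, n = 4) at day 15. The adjusted rise was 3.32 ± 0.74 (SE) and the adjusted fall 4.31 on the log2 scale. Both low levels lay under the reference line, and each change was at least 7.05-fold when counted from it. One untreated array, replicate 2, carried TMPRSS7 at 7.45 although its ELF5 was the lowest of the group at 4.61.

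The INSM1 probe set read above the reference line in all 8 untreated arrays, between 6.33 and 8.89 with a median of 7.26. Probe sets differ in brightness, so this does not rank INSM1 above ELF5 or TMPRSS7 in expression. The day 10 hCG replicates read 7.77, 11.33, 8.46 and 9.16. Only replicates 2 and 4 exceeded the highest untreated array, so the groups overlapped, and the adjusted difference was 1.83 ± 0.59 (SE). At day 15 the hCG arrays read 5.03, 4.17, 4.35, 6.50 and 4.67, and 4 of the 5 lay below every untreated array. The means were 7.30 ± 0.80 (SD, n = 8) untreated, 9.18 ± 1.54 (SD, n = 4) at day 10 and 5.05 ± 1.03 (SD, n = 4) at day 15. The adjusted difference between day 15 hCG and untreated tissue was -2.26 ± 0.54 (SE) for INSM1, against -0.41 ± 0.65 (SE) for ELF5 and -0.99 ± 0.68 (SE) for TMPRSS7. A pulse, high at day 10 and low again by day 15, thus describes ELF5 and TMPRSS7. Whether they ended at or below their starting level cannot be told, because the means at both times lay under the reference line. For TMPRSS7, 2 of 5 day 15 hCG arrays lay below every untreated array, and for ELF5 0 of 5 did. INSM1 already read above that line in untreated tissue and ended below where it began.

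These contrasts chose the genes, and the wider counts are given for scale only. Over all 28911 probe sets, 2.15% lay above every untreated array in all 4 day 10 hCG arrays, and 4.99% lay below every day 10 hCG array in all 5 day 15 hCG arrays. ELF5 and both tested TMPRSS7 probe sets are in the first set and all 3 genes are in the second.

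The 2 groups given TRL at day 10 show whether the early rise is also seen when steroid synthesis is inhibited; their arrays had no part in choosing the genes. With hCG and TRL, ELF5 read 9.69, 5.28, 9.82 and 7.21. Replicates 1 and 3 reached the level of hCG alone, replicate 4 lay in between and replicate 2 lay inside the untreated range. TMPRSS7 in the same arrays read 9.91, 5.50, 9.98 and 6.55, with the same pair high and the same array lowest. INSM1 read 8.13, 8.95, 9.29 and 7.59, with no such divide.

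Against untreated tissue these differences did not pass the test, limma's moderated test with Benjamini-Hochberg adjustment over all 28911 probe sets. ELF5 was 2.46 ± 0.71 (SE) log2 units above untreated (adjusted p = 0.056), with 3 of 4 arrays above every untreated one. TMPRSS7 was 2.30 ± 0.74 (SE) above (limma adjusted p = 0.098), with 2 of 4 arrays above, and INSM1 1.14 ± 0.59 (SE) above (limma adjusted p = 0.37), also with 2 of 4. In this comparison 2.83% of all probe sets passed, and 0 of the 4 tested probe sets of these genes did. Replicate 2 changed the outcome for both ELF5 and TMPRSS7: without it the differences were 3.37 (limma adjusted p = 0.0038) and 3.13 (limma adjusted p = 0.016). For ELF5, leaving out replicate 2 of day 10 hCG or replicate 4 of the day 10 R5020 group also brought the limma adjusted p under the threshold, to 0.038 and 0.036, with the difference unmoved. For TMPRSS7, leaving out untreated replicate 2 gave 2.81 (limma adjusted p = 0.05, just under the threshold). Within array set 1 alone, which holds both groups, the differences were 2.43 for ELF5, 2.24 for TMPRSS7 and 1.15 for INSM1, and none passed (limma adjusted p = 0.19, 0.24 and 0.52).

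With hCG, TRL and R5020 at day 10, ELF5 read 8.32, 7.75, 8.84 and 5.52, and TMPRSS7 read 8.16, 6.46, 8.87 and 5.35. Again 1 array, here replicate 4, lay inside the untreated range for both genes, and for TMPRSS7 replicate 2 did as well. Thus 3 of 4 arrays lay above every untreated one for ELF5 and 2 of 4 for TMPRSS7. INSM1 read 8.70, 7.47, 8.33 and 7.18, all within the untreated range. Adjusted differences from untreated tissue were 1.54 ± 0.71 (SE) for ELF5 (limma adjusted p = 0.41), 2.18 ± 0.74 (SE) for TMPRSS7 (0.18) and 0.66 ± 0.59 (SE) for INSM1 (0.76). Of all probe sets, 1.23% passed this comparison, and 0 of the 4 tested here did. Within array set 2 alone the differences were 1.57, 2.25 and 0.66, and none of them passed. Both comparisons share the untreated arrays with each other and with the comparison that chose the genes.

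The spread within the TRL groups was itself unusual, though not in these groups alone. In the day 10 TRL group the SD was 2.18 for ELF5 and 2.30 for TMPRSS7, against a median SD of 0.185 over all tested probe sets; only 0.0415% and 0.0208% of probe sets varied more. In the day 10 R5020 group the SDs were 1.46 and 1.60, exceeded by 0.107% and 0.0796% of probe sets. Among day 10 hCG arrays ELF5 (SD 1.39) and INSM1 (SD 1.54) varied more than TMPRSS7 (SD 0.65). The shares of probe sets that varied more than these were 0.249%, 0.152% and 3.67%. In untreated tissue they were 5.21% for ELF5, 1.43% for INSM1 and 0.578% for TMPRSS7. At day 15 the SDs of ELF5 and TMPRSS7 lay between 0.10 and 0.45, where both genes were near the bottom of their range.

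By day 15 all 3 genes were low in both TRL groups. With hCG and TRL, ELF5 read 4.89, 4.87, 5.14 and 4.51, TMPRSS7 read 4.09, 3.71, 4.12 and 4.47, and INSM1 read 4.28, 4.46, 4.38 and 4.17. Every one of these values lay below the lowest day 10 array with hCG and TRL for the same gene. Across all probe sets, 4.9% lay lower without overlap in this comparison and 2.86% passed the test, 1.44% as falls.

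In the hCG and TRL groups the stronger ELF5 probe set and INSM1 fell from day 10 to day 15. The difference was -3.60 ± 0.95 (SE) for ELF5 (limma adjusted p = 0.035) and -3.92 ± 0.79 (SE) for INSM1 (limma adjusted p = 0.0058). The day 15 levels lay under the reference line, and counted from it the falls were at least 3.51-fold and at least 4.93-fold. With all values under the line raised to it, both calls were lost, at -2.06 for ELF5 (limma adjusted p = 0.17) and -2.22 for INSM1 (limma adjusted p = 0.082). TMPRSS7 differed by -3.34 ± 1.00 (SE) (limma adjusted p = 0.067) and its second probe set by -2.43 (limma adjusted p = 0.17), so the count was 2 of 4 tested probe sets. The weaker ELF5 probe set was not among them. In a fit without the filter it differed by -1.27, with overlapping groups, and did not pass (limma adjusted p = 0.22). The ELF5 call was lost in 9 of 33 leave-one-out fits, those without day 10 TRL replicate 1 (-3.04, limma adjusted p = 0.099) or replicate 3 (-3.00, limma adjusted p = 0.11), untreated replicate 2, 3 or 6, day 15 hCG replicate 3, or day 15 TRL replicate 1, 2 or 4 (limma adjusted p = 0.051 to 0.087 for these 7). TMPRSS7 passed without day 10 TRL replicate 2 (-4.17, limma adjusted p = 0.011), without replicate 4 of that group (-3.82, limma adjusted p = 0.033) or without untreated replicate 2 (-3.76, limma adjusted p = 0.037). All day 10 TRL arrays are in array set 1 and all day 15 TRL arrays in sets 2 and 3, so the set adjustment rests on the untreated and day 15 hCG arrays. Without the near-identical pair, ELF5 differed by -3.51 (limma adjusted p = 0.11), TMPRSS7 by -3.22 (0.16) and INSM1 by -4.04 (0.021).

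With R5020 added, the day 15 arrays read 4.61, 5.60, 4.91 and 4.71 for ELF5, 4.15, 4.27, 4.38 and 4.31 for TMPRSS7, and 4.45, 6.00, 4.47 and 3.95 for INSM1. For TMPRSS7 and INSM1 every day 15 array lay below every day 10 array of this treatment, a separation found downward in 5.53% of all probe sets. For ELF5, day 15 replicate 2 overlapped the low day 10 replicate 4.

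Here TMPRSS7 and INSM1 fell and ELF5 missed the threshold. The differences were -3.04 ± 0.79 (SE) for TMPRSS7 (limma adjusted p = 0.035), -3.04 ± 0.62 (SE) for INSM1 (limma adjusted p = 0.0071), and -2.57 ± 0.75 (SE) for ELF5 (limma adjusted p = 0.062). Counted from the reference line, the falls were at least 3.20-fold for TMPRSS7 and at least 3.54-fold for INSM1. With values under the line raised to it, neither passed, at -1.26 (limma adjusted p = 0.35) and -1.73 (limma adjusted p = 0.091). The second TMPRSS7 probe set differed by -1.94 (limma adjusted p = 0.17). The weaker ELF5 probe set differed by -0.93 in the fit without the filter (limma adjusted p = 0.29). Thus 2 of 4 tested probe sets passed, against 2.47% of all probe sets and 1.36% as falls. Within array set 2 the differences were -2.57 for ELF5 (limma adjusted p = 0.049), -2.94 for TMPRSS7 (0.052) and -2.94 for INSM1 (0.0049). Without the near-identical pair they were -2.57 (limma adjusted p = 0.13), -2.94 (0.09) and -2.94 (0.027). TMPRSS7 also lost its call without any of day 10 R5020 replicates 1 and 3 or day 15 R5020 replicates 1, 2 and 4 (-3.08 to -2.49, limma adjusted p = 0.072 to 0.13). ELF5 passed without day 10 R5020 replicate 4 (-3.27, limma adjusted p = 0.014), and also without day 10 hCG replicate 2 or without day 10 TRL replicate 1, 2 or 3, where the difference was unmoved (limma adjusted p = 0.023 to 0.05). The falls of the R5020 and TRL arms were not shown to differ: the interaction was 1.03 ± 1.22 (SE) for ELF5, 0.30 ± 1.28 (SE) for TMPRSS7 and 0.88 ± 1.01 (SE) for INSM1 (limma adjusted p = 1 for each). Without the near-identical pair it was 0.95, 0.28 and 1.09 in the same order, and none passed.

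Against untreated tissue, INSM1 was lower at day 15 in both TRL groups. It differed by -2.78 ± 0.58 (SE) with hCG and TRL (limma adjusted p = 0.003) and by -2.38 ± 0.58 (SE) with R5020 added (limma adjusted p = 0.017). Counted from the reference line it was at least 2.24-fold lower in both. With values under the line raised to it, both differences were -1.08 and neither passed (limma adjusted p = 0.21 and 0.28). All 4 arrays of each group lay below every untreated array, as did 2.77% and 1.7% of all probe sets; 8.82% and 4.18% passed the test in these comparisons. The 4 TMPRSS7 arrays with R5020 also lay below every untreated array, by a narrow margin (4.38 against 4.40). ELF5 differed by -1.14 ± 0.71 (SE) and -1.03 ± 0.71 (SE), and TMPRSS7 by -1.04 ± 0.74 (SE) and -0.86 ± 0.74 (SE), none of which passed (limma adjusted p = 0.36 to 0.62). Within array set 2 the INSM1 differences were -2.89 (limma adjusted p = 0.0016) and -2.29 (limma adjusted p = 0.016). Without the near-identical pair they were -2.89 (limma adjusted p = 0.0098) and -2.29 (limma adjusted p = 0.096), and the R5020 call was also lost without day 15 R5020 replicate 1 (-2.23, limma adjusted p = 0.072) or replicate 4 (-2.25, limma adjusted p = 0.078). These 2 comparisons share their untreated arrays.

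**Figure D1:**
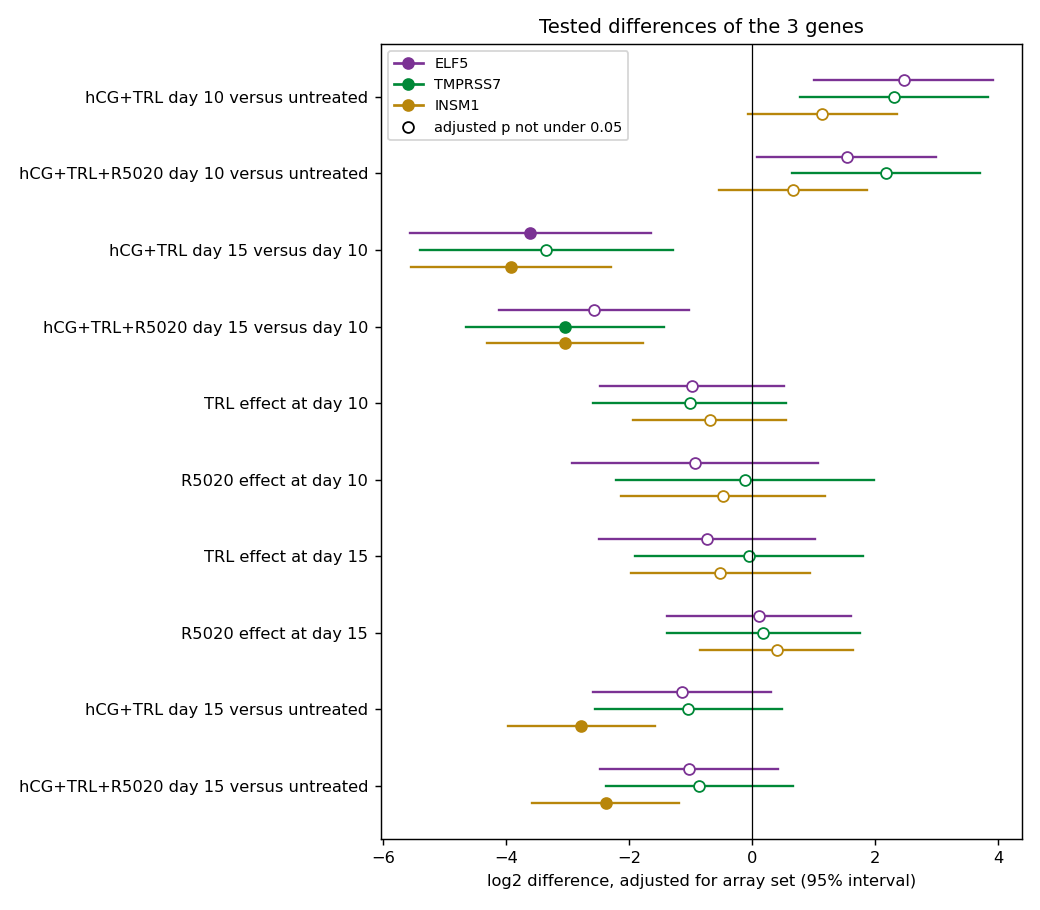
Differences of ELF5, TMPRSS7 and INSM1 in 10 of the 11 tested comparisons, as log2 differences adjusted for array set with 95% intervals; filled points have an adjusted p under 0.05 in limma's test. The filled points lie in the day 15 comparisons with day 10 or with untreated tissue, and none lies in a comparison of TRL or R5020 at the same day.

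Direct comparisons of treatments at the same day show no call for any of the 3 genes, with wide intervals. The comparisons of TRL with hCG alone share the hCG arrays on which the genes were chosen, so their hCG values at day 10 were chosen to be high and at day 15 to be low. Adding TRL to hCG at day 10 gave differences of -0.97 ± 0.73 (SE) for ELF5 (95% interval -2.47 to 0.52), -1.02 ± 0.76 (SE) for TMPRSS7 (-2.59 to 0.55) and -0.69 ± 0.60 (SE) for INSM1 (-1.93 to 0.54), with limma adjusted p = 0.62, 0.62 and 0.68. Each interval spans 0. With 1 array left out, the ELF5 difference ran from -1.64 (without day 10 hCG replicate 2) to -0.066 (without day 10 TRL replicate 2), and TMPRSS7 from -1.68 (without TRL replicate 3) to -0.19 (without TRL replicate 2). INSM1 ran from -1.16 to 0.02, the latter without day 10 hCG replicate 2. Across the array this comparison called 0.00346% of probe sets, a single one, although 3606 had an unadjusted p under 0.05. That count ran from 0 to 143 with 1 array left out, with 143 called without day 10 TRL replicate 1. Adding R5020 to hCG and TRL at day 10 gave -0.93 ± 0.98 (SE), -0.12 ± 1.02 (SE) and -0.48 ± 0.81 (SE) in the same order (limma adjusted p = 1 for each), with intervals of -2.93 to 1.07, -2.22 to 1.98 and -2.14 to 1.18. Those groups lie in different array sets, and limma called 0 probe sets, with 892 at an unadjusted p under 0.05.

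At day 15 the TRL differences were -0.73 ± 0.86 (SE) for ELF5, -0.05 ± 0.90 (SE) for TMPRSS7 and -0.52 ± 0.71 (SE) for INSM1 (limma adjusted p = 0.92, 1 and 0.94), and 0.0242% of all probe sets passed. The R5020 differences were 0.11 ± 0.73 (SE), 0.18 ± 0.76 (SE) and 0.40 ± 0.60 (SE), with limma adjusted p = 1 for each, where limma called 0 probe sets and 1010 had an unadjusted p under 0.05. Without the near-identical pair the TRL differences were -0.61, 0.14 and -0.64 in the same order, and limma called 0 probe sets for TRL. The R5020 differences were then 0.08, 0.29 and 0.60, and none passed. The sign of the TMPRSS7 differences for R5020 at day 10 and TRL at day 15 turned under some of the other settings tried.

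For each gene the order of the group means was day 10 hCG, day 10 with TRL, day 10 with TRL and R5020, untreated, day 15 hCG, day 15 with TRL and R5020, and day 15 with TRL. Neighbours in this order overlapped in all 3 genes, so the order itself is not resolved. The widest step between neighbours was between untreated and day 15 hCG for INSM1, at 2.25 log2 units, and between the day 10 R5020 group and untreated tissue for ELF5 (1.80) and TMPRSS7 (1.85).

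The second probe sets bear on whether these readings belong to the genes. Those of TMPRSS7 correlated at Pearson r = 0.979 over the 33 arrays and those of ELF5 at r = 0.955. The second TMPRSS7 probe set read 7.16, 7.31, 7.98 and 8.23 in day 10 hCG replicates 1 to 4, with untreated arrays between 3.84 and 6.32. The ELF5 probe set that did not pass the filter read 6.16, 4.53, 5.47 and 6.34 in the same arrays, each above every untreated array (3.84 to 4.27). It spanned 2.61 log2 units over all arrays, against 5.52 for the stronger one. Against untreated tissue it differed by 1.03 with TRL at day 10 and by 0.65 with TRL and R5020, in a fit without the filter. Neither passed (limma adjusted p = 0.18 and 0.59). Between genes no level is compared, because probe sets differ in brightness. The stronger TMPRSS7 probe set carries the suffix s_at, which the array's maker gives to probe sets that can match more than 1 transcript. Since both probe sets of a gene read the same RNA, their correlation is a description of agreement between them.

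The array-to-array spread at day 10 was shared by ELF5 and TMPRSS7. After each of the 12 day 10 hCG-treated arrays was expressed as its deviation from its group mean, the genes correlated at Pearson r = 0.915 (within-group permutation p = 0.000651, Benjamini-Hochberg adjusted over 3 gene pairs 0.002) and Spearman rho = 0.944 (permutation p = 0.000434, adjusted 0.0013). Without the 2 arrays farthest from the median, TRL replicate 2 and R5020 replicate 4, r was 0.815 (permutation p = 0.0104, adjusted 0.031) and rho 0.745. Within the 3 groups of 4, r was 0.80 with hCG, 0.98 with TRL and 0.93 with R5020. Each group lies in 1 array set, so these are also values within a set. The arrays with hCG alone also entered the choice of the genes, whereas those with TRL or R5020 did not.

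INSM1 did not share this spread. Its deviations correlated with those of ELF5 at r = -0.165 (rho = 0.147) and with those of TMPRSS7 at r = 0.138 (rho = 0.315), with permutation p adjusted to 0.61 for both r. Within the 3 groups its correlation with ELF5 ran from -0.86 with hCG through 0.06 with TRL to 0.81 with R5020. With TMPRSS7 it ran from -0.65 through 0.20 to 0.92 in the same order. The groups of 4 thus disagreed in sign, and a shared spread with R5020 was not tested apart. Day 10 hCG replicate 2, the lowest of its group for ELF5 at 6.98, was the highest of all arrays for INSM1 at 11.33; without it r with ELF5 was 0.315.

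Markers of other cell types were set against this spread on the same 12 arrays, as 10 lists by 3 genes, or 30 relations. The mean of 8 endothelial markers, all of which passed the filter, correlated with the deviations of ELF5 at r = -0.855 (permutation p = 0.00137, adjusted over the 30 relations 0.041; rho = -0.832, adjusted 0.078) and of TMPRSS7 at r = -0.806 (permutation p = 0.0034, adjusted 0.051; rho = -0.769, adjusted 0.11). For INSM1 r was 0.236. All 8 markers (PECAM1, CDH5, KDR, TEK, VWF, EMCN, CLDN5 and ERG) correlated negatively with ELF5, and all 8 with TMPRSS7, from -0.20 for CLDN5 to -0.69 for EMCN in the case of ELF5. Without TRL replicate 2 and R5020 replicate 4, r was -0.768 for ELF5 (permutation p = 0.022) and -0.671 for TMPRSS7 (permutation p = 0.079). The marker mean ranged from 9.86 to 10.14 with hCG, 9.64 to 10.09 with TRL and 10.18 to 10.43 with R5020, and none of the 8 markers passed in any of the comparisons. The part of vascular content in the spread of ELF5 and TMPRSS7 was not tested. The next relation was that of ELF5 with pericyte markers at r = -0.726 (adjusted permutation p = 0.29).

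**Figure D2:**
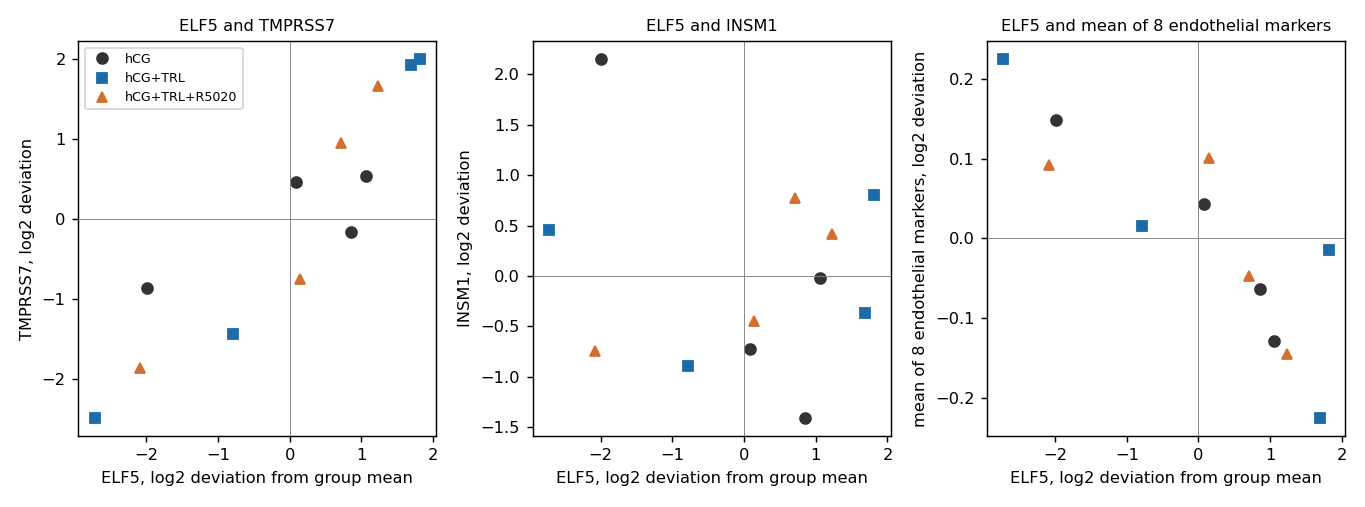
Deviations from the group mean on the 12 day 10 arrays given hCG, in log2 units: TMPRSS7 against ELF5, INSM1 against ELF5, and the mean of 8 endothelial markers against ELF5. TMPRSS7 rises with ELF5 (r = 0.915), and the endothelial mean falls with it (r = -0.855) over a range of under 0.5 log2 units. For INSM1 no such relation was shown over the 12 arrays (r = -0.165).

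Epithelial and neuroendocrine markers were read because ELF5 and INSM1 are known from such cells. Of 17 epithelial markers 9 passed the filter. Among these, group means ran from 9.28 to 11.16 for CLDN3, 8.97 to 9.59 for KRT18 and 8.27 to 8.49 for UPK3B, down to 6.51 to 6.66 for MUC1. In contrast, EPCAM, CDH1 and KRT7, which define many epithelia, exceeded the median of all values on 0 of 33 arrays, with highest readings of 3.94, 5.55 and 5.91. The mean of the 9 markers ranged from 7.59 to 8.08 untreated, 7.78 to 8.01 with day 10 hCG and 7.47 to 7.77 with day 15 hCG. None of the 9 was called at day 10 with hCG. KRT8 and CLDN3 fell from day 10 to day 15 of hCG by 1.11 and 1.96 on the log2 scale (limma adjusted p = 0.0073 and 0.00099). Against untreated, day 15 hCG differed by -1.06 for KRT8 and -1.26 for CLDN3 (limma adjusted p = 0.0056 and 0.02). PAX8 went the other way, at 0.50 (limma adjusted p = 0.039). Of 9 markers of neuroendocrine cells and nerve 2 passed the filter, CHGB and UCHL1, with a mean of 8.97 to 9.66 untreated and 8.90 to 9.74 with day 10 hCG. Granulosa-lutein markers, 7 of 11 of which passed, had a mean between 12.01 and 12.63 over all arrays, and STAR, which carries cholesterol into steroid synthesis, averaged 14.7. Single members moved under that mean. From day 10 to day 15 of hCG, HSD3B2 fell by 1.38 and INHBA rose by 1.67 on the log2 scale (limma adjusted p = 0.003 and 0.015). CYP17A1, the only theca-lutein marker measured, was higher than untreated by 1.37 at day 10 and 1.90 at day 15 of hCG (limma adjusted p = 0.04 and 0.0013).

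Related genes were read from fixed lists, beside the share called over the whole array: 4.74% for day 10 hCG against untreated tissue, 6.71% for day 15 against day 10 hCG and 5.66% for day 15 hCG against untreated. Of 26 other ETS-family factors 16 were measured, and 0 were called in the first comparison or the second, with medians of -0.01 and -0.04 log2 units (0.03 and 0.00 over all probe sets). ELF4, a relative of ELF5, rose by 0.43 at day 15 of hCG against untreated (limma adjusted p = 0.039). ETV4 fell by 0.55 ± 0.11 (SE) on the log2 scale with hCG and TRL at day 15 against untreated (limma adjusted p = 0.002). EHF, the ETS factor next to ELF5 in the genome, has 4 probe sets; the brightest read 3.77 to 4.36 and passed the median on 0 arrays.

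The ELF5 axis of the mammary gland was measured in 14 of 26 genes, with a median difference of 0.03 at day 10 of hCG, equal to that of all probe sets. One gene was called there: TNFRSF11B, the secreted decoy receptor (osteoprotegerin) for RANKL, the signal by which progesterone acts on mammary epithelium, fell by 1.67 ± 0.35 (SE) on the log2 scale (limma adjusted p = 0.005). It was also lower with TRL at day 10, by -1.86 ± 0.35 (SE) (limma adjusted p = 0.0025), and stayed lower at day 15 of hCG (-1.84, limma adjusted p = 0.00059). PGR, the progesterone receptor, fell from day 10 to day 15 with hCG and TRL (-1.26 ± 0.31 SE, limma adjusted p = 0.023) and was lower than untreated in the day 15 hCG group (-1.03, limma adjusted p = 0.0027). Group means ran from 5.20 to 7.15 for TNFRSF11B and from 5.87 to 7.27 for PGR. The low ends lay under the reference line, so the sizes of these falls are uncertain. CISH, an inhibitor of cytokine receptor signalling, rose by 0.54 at day 15 of hCG (limma adjusted p = 0.019). TEAD4, a transcription factor of the trophoblast, was lower than untreated with hCG and TRL at day 10 (-0.69, limma adjusted p = 0.018) and at day 15 (-0.56, limma adjusted p = 0.03). The prolactin receptor PRLR and the milk protein gene CSN2 were measured and were called in none of the comparisons.

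Of 17 other type II transmembrane serine proteases 5 were measured (TMPRSS2, TMPRSS3, TMPRSS6, TMPRSS9 and ST14), and 0 were called in the day 10 comparisons or in any fall to day 15. TMPRSS9 alone was called, 0.43 higher with R5020 at day 15 than untreated (limma adjusted p = 0.028). Inhibitors and substrates of such proteases were measured in 15 of 23 genes, with 0 called at day 10 of hCG. From day 10 to day 15 of hCG, F2RL1, a receptor that proteases activate by cleavage, fell by 1.73 ± 0.30 (SE) on the log2 scale (limma adjusted p = 0.00054), the inhibitor SERPINB6 fell by 0.94 (limma adjusted p = 0.0049), and SCNN1A, a sodium channel subunit, rose by 0.85 (limma adjusted p = 0.012). F2RL1 was also lower than untreated at day 15 in all 3 treatments, by -2.17 with hCG, -2.51 with TRL and -2.16 with R5020 (limma adjusted p = 1.8e-05, 7e-06 and 9.7e-05). With hCG and TRL at day 10 it was lower by -1.12 (limma adjusted p = 0.038), and PLAUR, the urokinase receptor, was 1.68 higher (limma adjusted p = 0.024). At day 15 the inhibitor SERPINA5 was higher than untreated by 1.66 with TRL and 1.87 with R5020 (limma adjusted p = 0.017 and 0.013). MET, the receptor of hepatocyte growth factor, was lower by -1.55 and -1.62 (limma adjusted p = 0.012 and 0.015).

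Cofactors of INSM1 and factors of neuroendocrine differentiation were measured in 6 of 20 genes (KDM1A, RCOR1, HDAC1, HDAC2, CCND1 and HES1), and 0 were called in the 14 comparisons. Its paralog INSM2 read at most 3.68 and passed the median on 0 arrays. Of 23 neuroendocrine secretory genes 5 were measured. VGF, a secreted peptide precursor, rose by 0.63 ± 0.15 (SE) at day 10 of hCG (limma adjusted p = 0.012) and fell by 0.52 to day 15 (limma adjusted p = 0.03). UCHL1, a neuronal ubiquitin hydrolase, was instead higher than untreated at day 15, by 0.80 with hCG (limma adjusted p = 0.0037).

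The genes whose pattern was most like each of these were found by Pearson r over the 33 arrays after removal of the array set effect, among 9825 genes with a single symbol. For ELF5 they were NIBAN2 (r = 0.931), KCNG3 (0.926), RAD51C (0.924), SMIM3 (0.921) and MORF4L2 (0.919), with TMPRSS7 at place 11 (0.901). For TMPRSS7 they were MFSD2A (0.928), ANKRD22 (0.924), NIBAN2 (0.906), RAD51C (0.902) and ELF5 (0.901). For INSM1 they were TDRD9 (0.903), HIPK2 (0.881), HAL (0.871), TOX2 (0.866) and STXBP6 (0.858), while ELF5 and TMPRSS7 held places 196 and 194 (0.704 for both). The arrays share their groups, so these correlations largely restate the group pattern and carry no test.

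The likeness was in shape rather than in size. At day 10 of hCG against untreated, KCNG3, a potassium channel subunit, stood at 2.40 ± 0.38 (SE), and MFSD2A, a lipid transporter, at 2.35 ± 0.28 (SE). RAD51C, of homologous recombination, stood at 0.78 ± 0.15 (SE) and MORF4L2 at 0.61 ± 0.10 (SE), all below the 3.44 of ELF5. The untreated means of KCNG3 (4.91) and ELF5 (5.80) lay under the reference line, so the sizes of their rises are uncertain. TDRD9, the gene most like INSM1 and known from germ-line transposon silencing, stood at 1.99 ± 0.29 (SE) and then fell by 3.55 ± 0.29 (SE) to day 15. Its day 15 hCG mean of 5.62 lay under the reference line, so the size of that fall is uncertain too. HIPK2, a nuclear kinase, stood at 0.21 ± 0.14 (SE) and fell by 0.97 ± 0.14 (SE) to day 15, so its likeness to INSM1 comes from the day 15 side.

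**Figure D3:**
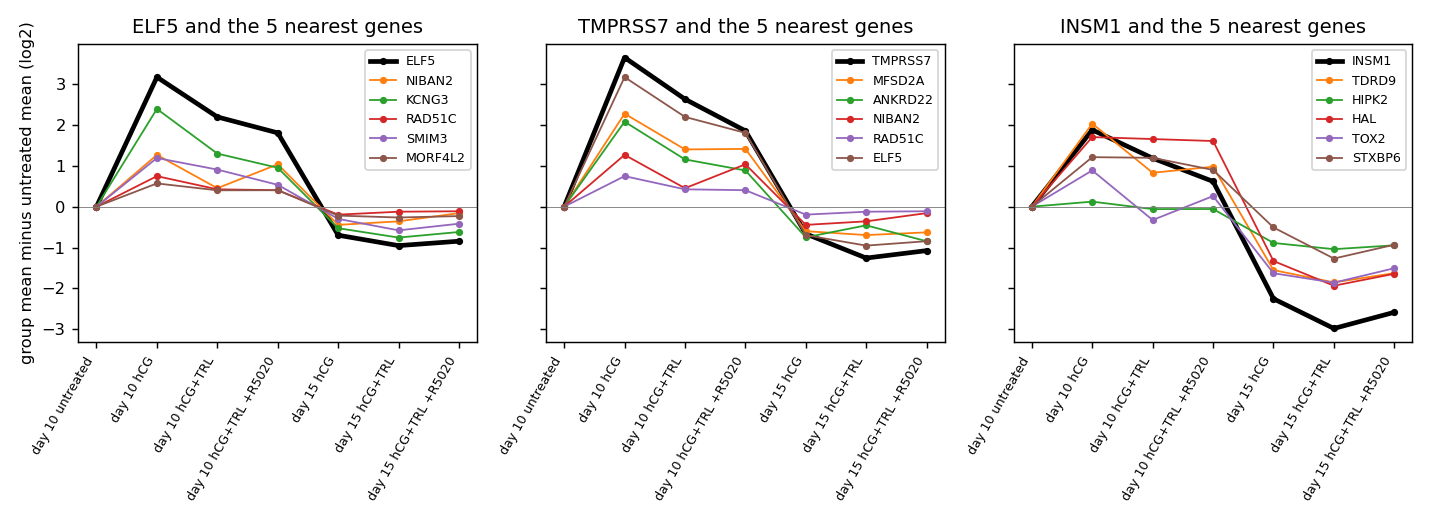
Group mean minus untreated mean, in log2 units, for ELF5, TMPRSS7 and INSM1 (thick black) and the 5 genes most like each (coloured). The genes like ELF5 and TMPRSS7 peak in the day 10 hCG group, and all lines end under 0 at day 15. INSM1 ends lowest, and the depths of the other lines overlap between panels.

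The neighbours of the 3 genes along the genome, taken from the order of genes in RefSeq's T2T-MMU8v2.0 annotation and chosen after values were seen, were read for the same course. Beside ELF5, ABTB2 rose at day 10 of hCG by 1.01 ± 0.18 (SE) (limma adjusted p = 0.0012) and fell by 1.03 to day 15 (limma adjusted p = 0.00058), whereas APIP and CAT, the catalase gene, were not called in either comparison. Beside INSM1, the splicing factor CRNKL1 rose by 0.64 ± 0.11 (SE) (limma adjusted p = 0.001) and fell by 0.49 (limma adjusted p = 0.0075), and RALGAPA2 was not called. Beside TMPRSS7 only ABHD10 passed the filter, and it was not called in either comparison.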

How the data were processed

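Whole corpora lutea of rhesus macaques were hybridised to 33 Affymetrix Rhesus Genome arrays. The authors deposited 1 log2 intensity per probe set and array; how they summarised and normalised the arrays is not given in the sources used here. Array set (1 to 3) is the first number of the array code in the labels, which do not say what it stands for.

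Each array was centred on its median, 99 control probe sets were removed, and probe sets above 6.19 (the median of all values) on at least 4 arrays were kept. Of the 28911 kept, 17606 have 1 symbol, 240 several and 11065 none; symbols were updated through Entrez IDs. One limma 3.58.1 fit (R 4.3.3) over all 33 arrays took group and array set as fixed terms and let the variance follow the mean (24 residual degrees of freedom). P-values were two-sided, adjusted by Benjamini-Hochberg within each comparison, and called under 0.05. The fit was tested on simulated data with independent normal noise on each array, so near-identical arrays were not part of that test. The fit treats day 15 hCG replicates 3 and 5 as separate samples. Correlations were tested over all within-group rearrangements (13824). The number of arrays limits the precision.

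The genes and all lists were chosen with earlier results of these data known. Named genes are the 3 genes, the 5 most like each by r, and called members of the lists, of which examples are given. Uncalled list members, defining markers and genome neighbours named beside them were picked after their values were seen. Where a gene had several kept probe sets, the brightest on average stands for it; symbols with LOC names were left out. Alternatives covered the filter, normalisation, array set, replicate number, near-identical arrays, low values and each array in turn. No probe or gene sequence was used here.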

Additional observations from a re-analysis of the deposited data

Results flagged for a closer look

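In the second TMPRSS7 probe set, untreated replicate 2 read 6.32 on the log2 scale, far from the other 7 untreated arrays, of which the nearest read 4.69. The gap took up 0.657 of the whole range of the group, above Dixon's 95% critical value of 0.526 for 8 arrays. The stronger TMPRSS7 probe set read 7.45 on the same array, where ELF5 was the lowest of the untreated group at 4.61. This was 1 of 35 sets of arrays examined in this way, and chance alone marks about 1 in 20.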

How the results depend on the processing

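Depth has no counterpart on arrays; signal over background limits the low side, where all 3 genes lie near or below the median of all values at day 15. Raising values under that median to it left ELF5 at -2.06 (adjusted p = 0.17) and INSM1 at -2.22 (0.082) for day 15 against day 10 with TRL, TMPRSS7 at -1.26 (0.35) and INSM1 at -1.73 (0.091) with R5020, and INSM1 at -1.08 against untreated in both day 15 TRL groups (0.21 and 0.28); TMPRSS7 reversed to 0.20 for TRL at day 15. All adjusted p-values here are limma's with Benjamini-Hochberg adjustment, and where no cause is shown by construction the cause was not tested.

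For TRL at day 10 against untreated, ELF5 passed with the upper-quartile filter (2.46, 0.048), without the array set term (2.19, 0.024) and with set as a random block (2.32, 0.032), and TMPRSS7 in the latter 2 fits (2.63, 0.011 and 2.48, 0.029). For TRL at day 15 against day 10, ELF5 lost its call without a filter (-3.60, 0.052), with replicates 3 and 5 averaged (-3.53, 0.086) and without the near-identical arrays (-3.51, 0.11), and TMPRSS7 passed without the set term (-3.89) and with the random block (-3.64). For R5020 at day 15 against day 10, ELF5 passed without the set term (-2.65), within set 2 (-2.57) and with the random block (-2.61), and TMPRSS7 lost its call without a filter (-3.04, 0.051), within set 2 (-2.94, 0.052) and without the near-identical arrays (-2.94, 0.09). INSM1 in the R5020 group at day 15 against untreated lost its call without the near-identical arrays (-2.29, 0.096). The TMPRSS7 difference for R5020 at day 10 reversed to 0.013 with replicates averaged and to 0.013 without the near-identical arrays, and that for TRL at day 15 to 0.10 and 0.14. Outside the fits that leave out 1 array, 353 of 390 alternatives kept direction and side of the threshold.

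With 1 array left out, ELF5 ranged from 1.86 to 3.37, TMPRSS7 from 1.64 to 3.13 and INSM1 from 0.85 to 1.59 for TRL at day 10 against untreated. For TRL at day 15 against day 10 the ranges were -4.51 to -3.00, -4.17 to -2.68 and -4.28 to -3.65, and for R5020 -3.27 to -2.16, -3.66 to -2.49 and -3.48 to -2.78. INSM1 ran from -2.79 to -2.23 in the R5020 group at day 15 against untreated. Ranges that crossed 0 were TMPRSS7 for R5020 at day 10 (-0.95 to 0.55), for TRL at day 15 (-0.40 to 0.19) and for the interaction (-0.36 to 1.13), INSM1 for TRL at day 10 (-1.16 to 0.02), ELF5 for R5020 at day 15 (-0.089 to 0.26) and ELF5 with INSM1 in co-variation (r from -0.34 to 0.31).

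Replicate numbers are shared by the groups, but same-numbered arrays of different groups correlated in their deviations at a median r of 0.0230 over 84 pairs (-0.382 to 0.509), so the numbers were not taken to pair the arrays. With the replicate number as a block, INSM1 was -4.25 (0.44) and ELF5 -2.83 (0.75) for TRL at day 15 against day 10, and INSM1 was -3.10 (0.54) and -2.70 (0.58) against untreated in the TRL and R5020 groups at day 15. TMPRSS7 reversed under this block for R5020 at day 10 (1.57), TRL at day 15 (1.10), both groups at day 15 against untreated (0.36 and 0.54) and the interaction (-1.39). The block left 17 probe sets called of 826 for TRL at day 15 against day 10, 0 of 356 for R5020 at day 10, and 37 of 2550 and 2 of 1209 at day 15 against untreated.

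Counts of called probe sets also moved with the array set: without that term 819 became 2485 (465 within set 1, 1510 with the random block) for TRL at day 10 against untreated, 356 became 574 (126 within set 2) for R5020, 826 became 3829 (1739 with the random block) for TRL at day 15 against day 10, 0 became 274 for R5020 at day 10 against TRL, and 1209 became 1816 (309 within set 2) for R5020 at day 15 against untreated, where 2550 for TRL became 1604 within set 2. Within set 2 the 714 for R5020 at day 15 against day 10 became 318, and 331 without the near-identical arrays, which also took 1209 to 422 (652 with replicates averaged). Within-set fits could not be made where no set holds both groups, as for TRL at day 15 against day 10.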
